A study of Homo sapiens with 4 samples.

Results

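This account describes 9 long noncoding RNA (lncRNA) genes that reached a set minimum level in parental MDA-MB-231 cells. Their levels were at or near 0 in the lung-selected subline MDA-MB-231-P3. MDA-MB-231 is an established human line of triple-negative breast cancer. Per the labels' protocols, MDA-MB-231-P3 was obtained from it by tail vein injection into mice, collection of the tumour cells growing in the lung and culture, a cycle done in 3 rounds. There were 4 libraries, 2 per line, and the labels do not state whether the pair came from separate cultures. P-values therefore rest on the spread between libraries of a line, which may be technical. The fit also shares that spread across genes. Levels were given in FPKM, which scales fragments by transcript length and by how many were mapped in the library.

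The table listed 104786 isoforms of 46902 lncRNA genes, of which 43199 were named lnc-GENE-number. Such a name gives a neighbouring protein-coding gene and a serial number, and says nothing of the lncRNA's own function. A lnc-GENE-number gene was a member if its isoforms summed to at least 2 FPKM in both parental libraries and to under 0.1 FPKM in both MDA-MB-231-P3 libraries. Of 1376 genes at the parental minimum, 9 met the second condition, 0.654%. The levels in all 4 libraries chose the members, so the loss itself is described here and not tested.

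LncRNAs are transcripts that are not translated into long proteins. Many are spliced and are expressed at low levels in few cell types, and some act on the chromatin or transcription of genes close to them, while others act in the cytoplasm or have no known role. The functions of the 9 members are not known from their names, so what is given beside each is the product of its neighbour.

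Parental levels of the members spanned 2.75 to 42.2 FPKM as means of 2 libraries. The most abundant by mean was lnc-SSTR3-2, named for the somatostatin receptor gene SSTR3, at 7.44 and 77.0 FPKM in parental libraries 1 and 2 and at 0.0681 and 0.0709 FPKM in the subline. The parental mean of 42.2 ± 49.2 FPKM (SD, n = 2) therefore rested on library 2, which was 10.4 times library 1. Its neighbour product is a G protein-coupled receptor for the inhibitory peptide hormone somatostatin.

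Next in level, lnc-P4HTM-2 had 34.0 and 26.7 FPKM in the parental libraries against 0.00259 and 0.000116 FPKM in MDA-MB-231-P3, with a parental mean of 30.4 ± 5.17 FPKM (SD, n = 2). P4HTM encodes a transmembrane prolyl 4-hydroxylase of the endoplasmic reticulum that can act on hypoxia-inducible factor. A similar parental level was seen for lnc-SPRYD4-1, at 21.5 and 33.0 FPKM, with 2.03e-06 and 0.0327 FPKM in the subline. SPRYD4 encodes a small protein with a SPRY domain, a protein-binding fold. The 2 lncRNAs differed by less than the spread between the parental libraries, since their ranges overlapped.

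A lower parental level was found for lnc-CFL2-2, at 5.48 and 16.0 FPKM, and both subline libraries listed it at exactly 0. CFL2 encodes the muscle form of cofilin, a protein that severs actin filaments. The parental libraries differed 2.92-fold for this gene. Together with lnc-SSTR3-2 it was 1 of 2 members, of 9, whose parental libraries differed more than 2-fold, against 12.4% of all 1376 genes at the parental minimum.

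The other 5 members had parental means under 5 FPKM. With 3.39 and 6.47 parental FPKM, lnc-SEL1L-17 was at exactly 0 in both subline libraries. SEL1L is an adaptor of the ubiquitin ligase complex that clears misfolded proteins from the endoplasmic reticulum. The closest parental libraries were those of lnc-TOE1-1, at 4.06 and 4.50 FPKM, with 1.45e-13 and 5.03e-31 FPKM in the subline. TOE1 is an exonuclease that trims the 3′ ends of small nuclear RNAs.

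For lnc-VAX2-4 the parental libraries listed 3.46 and 4.62 FPKM, and the subline 3.68e-37 and 1.47e-28 FPKM. VAX2 is a homeobox transcription factor of the developing ventral eye. Levels of lnc-COL4A3-4 were 3.78 and 2.93 FPKM in MDA-MB-231 and 1.01e-16 and 2.12e-15 FPKM in the subline. COL4A3 encodes a type IV collagen chain, a component of basement membranes such as that of the kidney glomerulus. The lowest member, lnc-HABP4-10, had 2.27 and 3.23 FPKM in MDA-MB-231 and was at exactly 0 in both subline libraries. HABP4 binds RNA and the glycosaminoglycan hyaluronan.

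In the subline, 3 members were thus at exactly 0 in both libraries, and 3 others had at least 1 library above 0.001 FPKM. Values such as 3.68e-37 FPKM are far below what a single read could give. They carry no information on which of the lowest members was lower. In 7 of the 9 members parental library 2 was the higher one, and over all 1376 genes this held for 686. A zero in these cultures does not tell apart fewer cells that express a lncRNA from less of it in each cell.

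**Figure D1:**
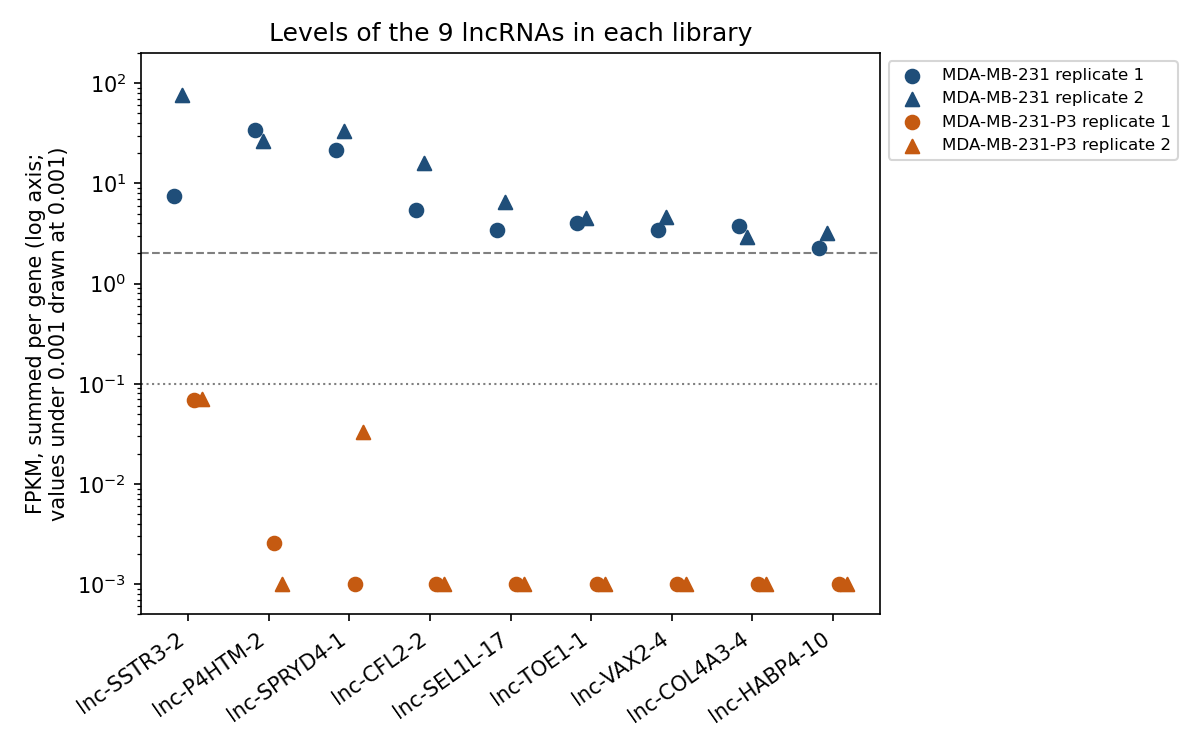
Summed FPKM (log axis) of the 9 members in each of the 4 libraries, with values under 0.001 FPKM drawn at 0.001; the dashed and dotted lines mark the limits of 2 and 0.1 FPKM. The parental points of lnc-SSTR3-2 lie furthest apart, at 7.44 and 77.0 FPKM, and 6 members lie at the drawn floor in both MDA-MB-231-P3 libraries.

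Decreases among the 1376 genes ranged from partial to near complete. The rule itself places every member under 5% on the scale used here. The higher subline library, as a percentage of the lower parental library, was at most 0.954% among the members, for lnc-SSTR3-2. The next gene, lnc-MMP28-4, was at 7.98%, and no gene lay between 1 and 5%. From 5 to 10% there were 2 genes, from 10 to 25% there were 11, from 25 to 50% there were 50 and from 50 to 100% there were 401. In 903 of the 1376 genes the higher subline library equalled or exceeded the lower parental library.

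**Figure D2:**
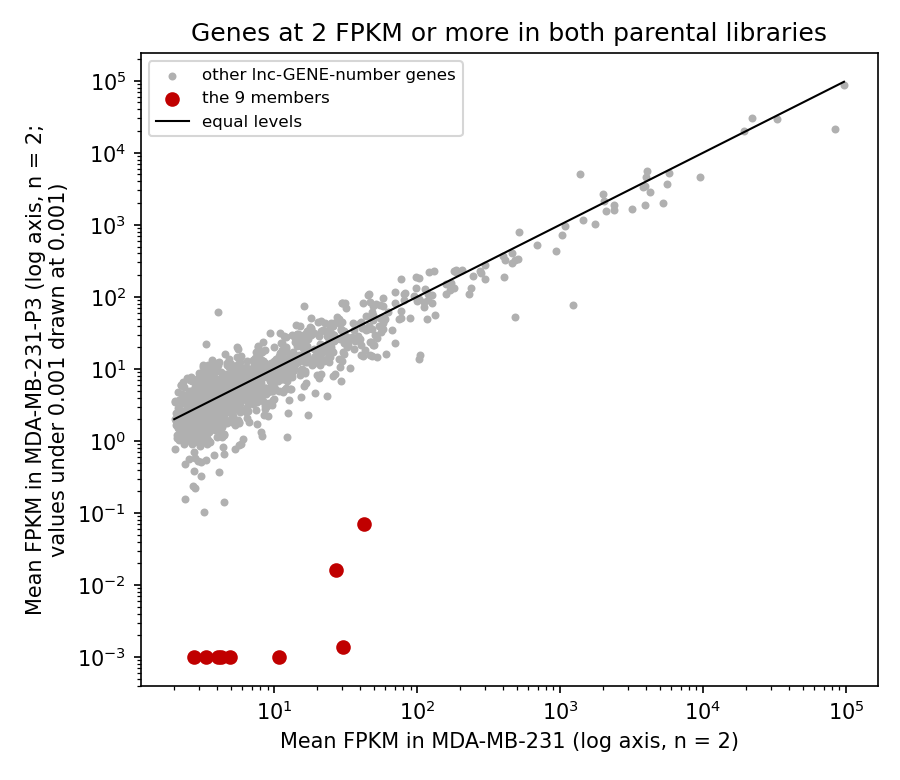
Mean FPKM (both axes log) in the parent (x) and the subline (y) for the 1376 lnc-GENE-number genes at 2 FPKM or more in both parental libraries, with means under 0.001 FPKM drawn at 0.001 and a line of equal levels. The 9 members, in red, lie below all other genes, and 6 of them are at the drawn floor.

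Close to the parental limit, lnc-HABP4-10, lnc-COL4A3-4 and lnc-SEL1L-17 were just inside, with 2.27, 2.93 and 3.39 FPKM in their lower parental library. Just outside it were lnc-ASB1-2 at 1.89, lnc-RBM19-3 at 1.40 and lnc-PLAT-3 at 1.39 FPKM, all under 0.1 FPKM in both subline libraries. Close to the ceiling, the higher subline library had 0.0709 FPKM for lnc-SSTR3-2, 0.0327 for lnc-SPRYD4-1 and 0.00259 for lnc-P4HTM-2. Just outside were lnc-NOMO2-1 at 0.199, lnc-FOXA1-2 at 0.276 and lnc-MMP28-4 at 0.285 FPKM.

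By abundance, the members fell as follows. Of the 687 genes with a parental mean of 2 to 5 FPKM, 5 were members (0.728%), and of the 223 genes at 20 FPKM or more, 3 were (1.35%). Between these levels there was 1 member among 171 genes at 10 to 20 FPKM and 0 among 295 genes at 5 to 10 FPKM. The parental level is part of the rule and the counts are small, so nothing is read from these shares.

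A simple listing was common among the members, but it is not independent of the rule. All listed isoforms of a gene together had to stay under 0.1 FPKM in both subline libraries. A single isoform was listed for 8 of the 9, all but lnc-COL4A3-4, which had 2 and whose second isoform was near 0 in every library. Among the 1376 genes at the parental minimum, 48.8% had 1 listed isoform. Members made up 8 of 672 such genes (1.19%) and 1 of 704 genes with more isoforms (0.142%).

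The same thresholds were applied to each of the 6 choices of 2 high and 2 low libraries, as a description. With the lines exchanged, 20 of 1533 genes (1.3%) were at 2 FPKM or more in both subline libraries and under 0.1 FPKM in both parental ones. With 1 library of each line as the high pair, the 4 mixed choices gave 5, 6, 7 and 13 genes, 0.386 to 0.966% of the genes at the minimum. The 9 members therefore lay within the range of choices that do not separate the lines. Of the 31 genes in the mixed choices, 29 had a single listed isoform, and so did 17 of the 20 genes of the exchanged choice.

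In level, too, there were genes of the mixed choices like the members. For example, lnc-RCC1L-3 reached 97.0 FPKM in parental library 1 and 174 FPKM in subline library 2, and at 5.80e-06 and 1.71e-07 FPKM in the other 2 libraries. Genes with a mean of at least 20 FPKM in the high pair numbered 3 among the members, 2 in the mixed choice that holds lnc-RCC1L-3 and 0 in each of the other 3 mixed choices. The examples named in this paragraph and the next were chosen after their values were seen.

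**Figure D3:**
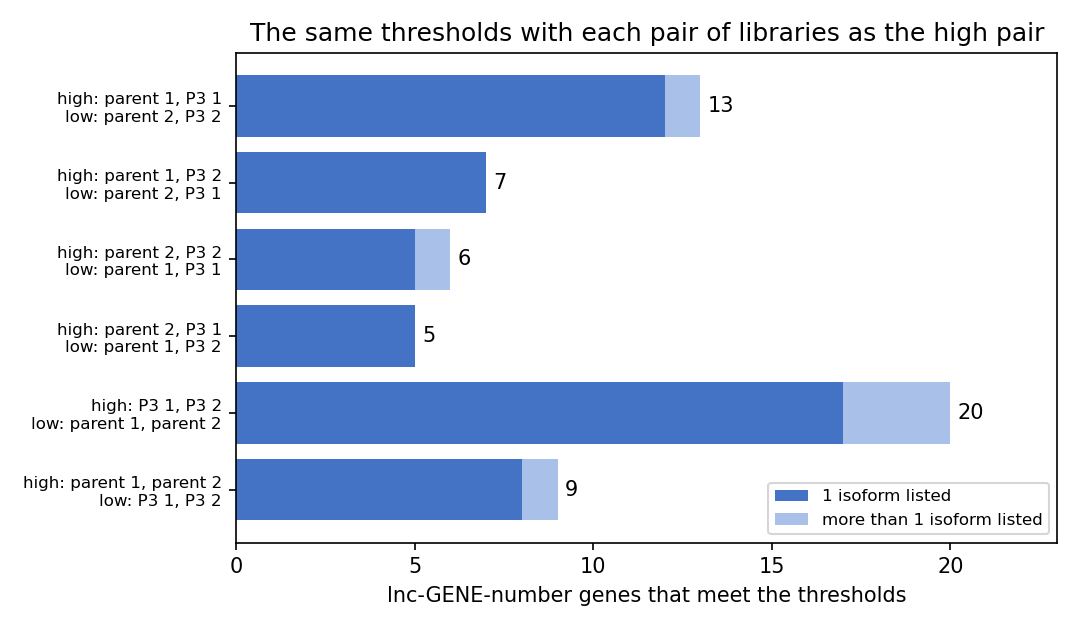
Number of lnc-GENE-number genes at 2 FPKM or more in a high pair and under 0.1 FPKM in the remaining pair, for each of the 6 high pairs, split by whether 1 or more isoforms are listed. The bar with both parental libraries high reaches 9, the mixed bars reach 5 to 13, and the bar with both MDA-MB-231-P3 libraries high reaches 20.

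Losses of this size also occurred between libraries of the same line. Of 1861 genes at 2 FPKM or more in parental library 1, 116 (6.23%) were under 0.1 FPKM in parental library 2, and in the opposite direction 91 of 1870 (4.87%) were. From a parental to a subline library the share was 4.30 to 4.60% over 4 ordered pairs, and within the subline it was 3.93 and 4.73%. From a subline to a parental library it was higher, 6.82 to 8.66%. Abundant lncRNAs were among those lost within a line: lnc-TRIM69-3 had 470 FPKM in parental library 1 and 3.74e-06 FPKM in library 2, and lnc-FUBP1-3 had 221 and 0.0381 FPKM in the subline libraries.

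Genes with a single listed isoform, the class that holds 8 of the 9 members, lost their value more often in each of the 12 ordered pairs. Within a line, 5.98 to 11% of them were lost, against 0.991 to 1.46% of genes with more isoforms. From a parental to a subline library the shares were 6.76 to 7.81% and 0.901 to 1.87%. Here too the limit of 0.1 FPKM applied to the sum over all isoforms of a gene. The pairs share libraries and genes, so these shares are descriptions without a test.

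**Figure D4:**
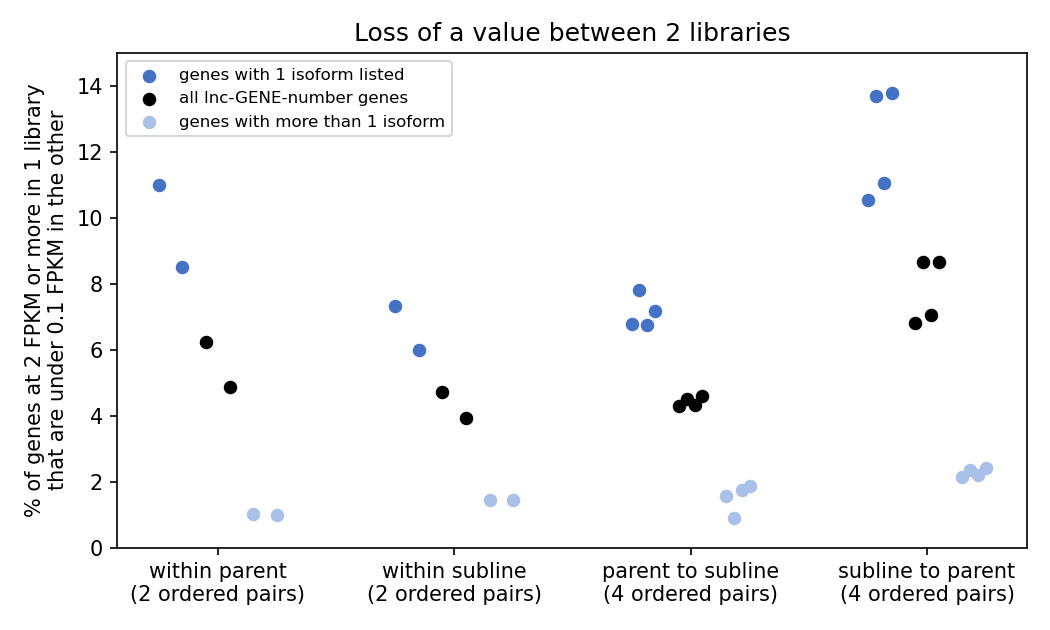
Percentage of lnc-GENE-number genes at 2 FPKM or more in 1 library that were under 0.1 FPKM in another, 1 point per ordered pair of libraries, grouped by line. Genes with 1 listed isoform lie between 5.98 and 13.8% and genes with more isoforms between 0.901 and 2.43%, and the pairs within the parent lie above those from parent to subline for genes with 1 isoform.

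Asking for both libraries of a line lowered the count. Without parental library 1 or without parental library 2, 43 genes met the rule in each case, and without subline library 1 or 2 the counts were 20 and 23. Each of these counts drops a condition of the rule and so holds the 9 members by construction.

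The same limits were applied to the summed levels of genes named in other ways (antisense, LINC, host gene and TCONS names). Of 457 of them at 2 FPKM or more in both parental libraries, 0 were under 0.1 FPKM in both subline libraries, beside 0.654% of 1376 lnc-GENE-number genes. In the mixed choices 5 such genes met the thresholds in all, and with the lines exchanged 0 did. A single isoform was listed for 26.0% of these 457 genes, and the median was 8 isoforms. The counts are small, so no difference between the kinds of names is read from them.

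When single isoforms of lncRNA genes of any name were held to the same limits, 27 isoforms of 26 genes passed. With lnc-GENE-number names alone, 21 isoforms passed. The isoforms of the members were 9 of the 27. The other 18 belonged to 17 genes, 6 of them named in other ways, whose summed level in the subline was 0.142 to 65.5 FPKM. One of them was SNHG9:8, an isoform of a snoRNA host gene, with 32.1 and 7.98 FPKM in MDA-MB-231 and values near 0 in both subline libraries. Summed over its isoforms, SNHG9 still had 88.5 and 42.4 FPKM in the subline, against 123 and 199 FPKM in the parent. In the members no listed isoform could reach 0.1 FPKM in a subline library, since the rule limits the sum of their isoforms.

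The neighbouring genes lay on 7 chromosomes, in hg19 coordinates. P4HTM lies on chromosome 3 (plus strand, 49027322 to 49044586), SPRYD4 on chromosome 12 (plus strand, 56862362 to 56873492) and SSTR3 on chromosome 22 (minus strand, 37600277 to 37608517). TOE1 lies on chromosome 1 (plus strand, 45805724 to 45809645) and HABP4 on chromosome 9 (plus strand, 99212451 to 99253618).

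Chromosomes 2 and 14 each held a pair. VAX2 (plus strand, 71127706 to 71192503) and COL4A3 (plus strand, 228029340 to 228179508) lie on chromosome 2, and CFL2 (minus strand, 35178319 to 35184029) and SEL1L (minus strand, 81937891 to 82000197) on chromosome 14. The neighbours of a pair are 157 and 46.8 Mb apart. The annotation names none of the 9 lncRNAs themselves, and whether they lie in exons, introns or between genes is not analysed here.

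Other lncRNAs named for the same 9 neighbours were mostly listed at low values. Of 28 listed, 23 were under 0.5 FPKM in all 4 libraries, among them all 13 others at SEL1L and all 5 at VAX2. A mean of 0.5 FPKM, the minimum for testing, was reached by 2. At SSTR3, lnc-SSTR3-1 had 2.86 and 2.24 FPKM in MDA-MB-231 and 5.87 and 4.01 FPKM in the subline. Both subline libraries were above both parental ones, which held for 28.9% of the 6444 genes tested, and the difference of 0.82 on the log2(FPKM + 0.5) scale (SE 0.31, limma adjusted p = 0.335) did not pass the test. At HABP4, lnc-HABP4-8 had 1.06 and 0.489 FPKM in the parent and 0.499 and 0.984 FPKM in the subline, which overlapped (log2 difference -0.03, SE 0.42, limma adjusted p = 0.980). Limma called 0 of these 2, at either an adjusted or an unadjusted p under 0.05, against 4 of 6444 genes (0.0621%) by the adjusted p.

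LncRNAs named for genes around the neighbours lay both higher and lower in the subline. This comparison was added after the members' values were seen, and took lncRNAs named for protein-coding genes within 500 kb of each neighbour. Neither these lncRNAs nor the members were located, so their distance from each other is unknown. Below, "at", "near" and "around" a neighbour refer to the genes in the lncRNA names. Of 236 such lncRNAs listed, 46 reached the minimum mean of 0.5 FPKM and were tested. Of these 46, limma called 0 in either direction, and 3 had an unadjusted p under 0.05 (6.52%, against 15.2% of all genes). Lower levels in both subline libraries than in either parental one were found for 9 of the 46 (19.6%, against 21.4% of all genes) and higher levels for 12 (26.1%, against 28.9%). The median difference was 0.003 on the log2(FPKM + 0.5) scale, beside 0.09 over all 6444 genes.

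By neighbour, 7 tested lncRNAs around P4HTM had differences from -0.57 to 0.73. In both subline libraries 1 of them lay higher and 3 lower. Among the 3 was lnc-DALRD3-1, at 1.90 and 2.88 FPKM in MDA-MB-231 and 1.49 and 1.34 FPKM in the subline. Around SPRYD4, 0 of 7 tested lncRNAs lay higher and 1 lower throughout, lnc-IL23A-2, at 3.08 and 0.853 against 0.639 and 0.166 FPKM. Around TOE1, 3 of 8 lay higher and 2 lower. Around CFL2, 2 of 5 lay higher and 0 lower. Higher were also 1 of 2 around SSTR3, 1 of 2 around SEL1L and 1 of 3 around VAX2, with 0 lower at each. Of 6 around COL4A3, 1 lay higher and 1 lower, and of 6 around HABP4, 2 lay higher and 2 lower. Over all 6444 genes tested, 28.9% lay higher and 21.4% lower, and nothing is read from counts this small. These counts leave out lncRNAs below the minimum mean for testing, which lay in both directions. Around SPRYD4, for example, the untested lnc-SMARCC2-8 had 1.04 and 0.596 against 0.172 and 0 FPKM. The untested lnc-IL23A-4 had 0.217 and 0.241 against 0.417 and 0.719 FPKM.

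The smallest p in these windows belonged to lnc-STON2-5, near SEL1L, which had 0.606 and 0.0120 FPKM in the parent and 7.45 and 3.06 FPKM in the subline (log2 difference 2.82, SE 0.60, limma adjusted p = 0.264). Its direction was opposite to that of lnc-SEL1L-17. Near HABP4, lnc-NUTM2G-5 had 3.24 and 5.14 FPKM in the parent and 1.65 and 1.92 FPKM in the subline (log2 difference -1.01, limma adjusted p = 0.301). Near COL4A3, lnc-RHBDD1-6 had 19.8 and 17.7 FPKM in the parent and 11.8 and 11.4 FPKM in the subline (log2 difference -0.66, limma adjusted p = 0.330). At CFL2, lnc-EAPP-4 had 0.223 and 1.29 FPKM in MDA-MB-231 and 2.76 and 2.33 FPKM in the subline (log2 difference 1.41, limma adjusted p = 0.327). With lnc-STON2-5 and lnc-NUTM2G-5 it made up the 3 lncRNAs with an unadjusted p under 0.05, 2 higher and 1 lower in the subline, and neither these nor lnc-RHBDD1-6 passed the adjusted test.

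**Figure D5:**
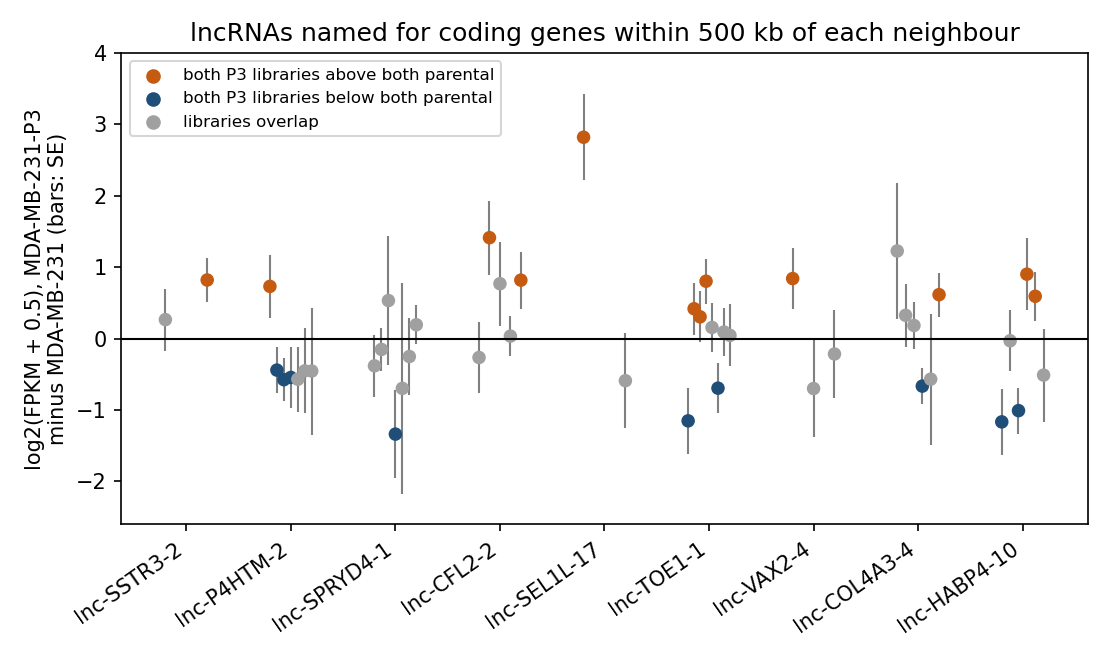
Difference in log2(FPKM + 0.5), MDA-MB-231-P3 minus MDA-MB-231 with SE bars, of the 46 tested lncRNAs named for coding genes within 500 kb of each member's neighbour; the members themselves are not drawn. Colours show whether the libraries of the lines overlap, 12 lie above, 9 below and the rest overlap, and the highest point is lnc-STON2-5 at 2.82.

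Neighbours were also sorted into 14 groups by the first letters of their symbols, such as ZNF for zinc finger or SLC for solute carrier genes. These prefixes caught 1 of the 9 neighbours, COL4A3, so that lnc-COL4A3-4 was 1 of 19 genes of the matrix and adhesion group at the parental minimum, beside 0.654% of all 1376. The prefixes do not cover VAX2, TOE1 and SEL1L, whose products are known as a developmental transcription factor, an RNA-processing enzyme and a part of a ubiquitin ligase complex. The groups therefore show neither a shared function of the neighbours nor its absence.

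The lines' identity was checked on lncRNAs only. Of lncRNAs typical of mesenchymal triple-negative lines, 3 of 3 were listed. MIR100HG had 23.6 and 22.8 FPKM in MDA-MB-231 and 44.2 and 41.2 FPKM in the subline, and LINC00460 had 9.49 and 8.0 against 9.08 and 10.9 FPKM. CYTOR had 700 and 477 against 311 and 305 FPKM, and the sum of the list was 733 and 507 against 365 and 357 FPKM. Of 2 luminal lncRNAs 1 was listed, and this lncRNA, DSCAM-AS1, was at or near 0 in all. Epithelial lncRNAs, 3 of 3 listed, summed to 1.36 and 0.800 FPKM in MDA-MB-231 and 0.381 and 0.303 FPKM in the subline, with MIR205HG at or near 0 in all. Fibroblast and smooth muscle lncRNAs, 4 of 5 listed, summed to 0.632 and 0.769 FPKM in the parent and 0.575 and 0.373 FPKM in the subline, with DNM3OS at 0 in all. Leukocyte lncRNAs, 4 of 4 listed, summed to 0.763 and 1.59 FPKM in the parent and 57.5 and 65.9 FPKM in the subline. PCED1B-AS1 carried that difference, at 0.363 and 0.517 against 56.4 and 65.0 FPKM. LINC00926 had 0.324 and 1.07 against 1.05 and 0.859 FPKM, while MIR155HG stayed at 0.0783 FPKM or less and LINC00861 near 0. Of 2 lncRNAs taken for lung epithelium 1 was listed, LINC00261, whose specificity for lung was not checked. It had 5.14 and 4.69 FPKM in the parent and 7.06 and 7.01 FPKM in the subline. Higher levels in both subline libraries held for 28.9% of the 6444 genes tested, and 1 lncRNA does not establish a cell type. The part of these lists in the loss of the 9 members was not tested.

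Read depth was unknown, since no read counts were used. Summed over all isoforms, the parental libraries held 460282 and 500086 FPKM and the subline 351135 and 372689 FPKM, while 1861 and 1870 lnc-GENE-number genes reached 2 FPKM in the parent and 2009 and 2010 in the subline. The 9 members held 0.0186 and 0.0349% of the parental sums.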

How the data were processed

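LncRNA sequencing libraries of parental MDA-MB-231 cells and the MDA-MB-231-P3 subline, 2 each, were analysed. Per the labels' protocols, the authors made stranded paired-end libraries of mRNA fractions, aligned reads to hg19 with HISAT2 and deposited FPKM per isoform. The submitters' processing notes also name StringTie; for versions, lncRNA annotation and isoform assignment the entry is: not given in the sources used here. A low value can be a failed estimate.

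The per-sample files equalled the series table in all 4 libraries. Isoforms were summed per gene (Python 3.11.15, pandas 2.3.3). Genes with a mean of at least 0.5 FPKM were fitted on log2(FPKM + 0.5) using limma 3.58.1 under R 4.3.3 (eBayes with trend, two-sided, no block), and p-values were adjusted over all 6444 genes by the Benjamini-Hochberg method, threshold 0.05. The fit was tested on simulated data. The members and lists were chosen with earlier results of these data known. All 9 members passed the filter through their parental level alone and are given without a test. Every member was named, with the 3 genes nearest each limit on either side, the tested lncRNAs of the same neighbours and the marker lncRNAs; lncRNAs of the windows, SNHG9 and the genes lost within a line were chosen after their values were seen. Neighbours were located in hg19 with the GRCh37 lift of GENCODE release 44, which held 95.9% of the 13437 neighbour symbols.

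Alternatives were other limits, pseudocounts, filters and scalings, isoforms in place of sums, a replicate block, and leaving out each library.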

Additional observations from a re-analysis of the deposited data

How the results depend on the processing

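The count of 9 members was the same after quantile normalization or median scaling, and 8 and 7 with a subline ceiling of 0.05 and 0.01 FPKM. It was 16 with a parental minimum of 1 FPKM, 4 with a minimum of 5 FPKM and 14 with a ceiling of 0.5 FPKM. Leaving out single libraries gave 20 to 43. These changes arise by construction, since the settings loosen or tighten the rule. Single isoform rows gave 21, but they are another unit, since other isoforms of the gene may stay above the ceiling. With quantile normalization the mean parental level of each of the 9 members moved by less than the spread between the parental libraries. The most abundant isoform in place of the sum could not move it, since at most 1 isoform per member was above values near 0. The share of genes lost between libraries moved in every alternative: from parent to subline it was 4.44% on average, and 3.68% with a minimum of 5 FPKM, 7.18% with a ceiling of 0.5 FPKM and 8.01% as isoforms. Within the parent it was 5.55%, and 4.18, 7.67 and 8.83% in the same settings. Within the subline it was 4.33%, and 2.74, 6.22 and 6.41%, and from subline to parent 7.80%, and 5.37, 11.1 and 10.4%. Under each setting the share within the parent was above that from parent to subline. Over all summed genes, limma made 4 calls, and 4 with a pseudocount of 0.1, a minimum mean of 1 FPKM or centring, 2 with quantile normalization, and 0 with a pseudocount of 1, without the filter, without the trend, as isoforms, or without any single library (0 to 0), where the lone library of a line is assumed to vary like the other line. With the replicate number as a block it made 0 calls over all genes and 0 among other lncRNAs of the same neighbours. For the fits the cause was not tested. The labels do not say that a number marks a shared batch, and the deviations of libraries with the same number correlated at 0.078 over 6444 genes. The 0 calls among other lncRNAs of the same neighbours held in every setting, with 1 to 15 tested. Their median difference of 0.40 was 0.82 with a minimum mean of 1 FPKM, where 1 was tested. Without the filter it was 0.06, with 15 tested. It was -0.36 without MDA-MB-231 replicate 2 and -0.09 without MDA-MB-231-P3 replicate 2, where 3 were tested.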
